A study of Saccharomyces cerevisiae with 30 samples.

Results

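Line 7 is one of 8 tetraploid populations of budding yeast that were propagated independently for 1000 generations, and its evolved clone was compared here with its own tetraploid ancestor. All 3 arrays whose titles name evolved 7 over ancestral 7 were taken, of 30 arrays in 10 groups of 3. The other groups are evolved over ancestral cells in lines 1 to 6 and 8, ancestral 4 over a diploid and evolved 4 over a diploid. The ancestors were made from W303 haploids that lacked SPO11, a gene needed for meiotic recombination, by mating a/a with α/α diploids, so evolved and ancestral cells carried this deletion alike. Populations were kept in rich medium (YPD) by daily dilution. The fittest of several colonies of each line served as its clone, so line 7 is represented by 1 clone. RNA was taken from cultures in log phase at 36°C, a temperature above that of the propagation. RNA of the evolved clone was labelled with Alexa Fluor 647 and that of the ancestor with Alexa Fluor 555 on all 3 arrays. A dye effect particular to a spot is therefore part of every ratio.

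A tetraploid carries 4 copies of each of its 16 chromosomes. The study's hybridisation of genomic DNA described the clone of line 7 as carrying an extra chromosome II. In budding yeast, transcripts of most genes on a gained chromosome are known to rise roughly with the number of copies, with exceptions among single genes. A transcript that followed its gene from 4 copies to 5 would change by 0.32 on the log2 scale, a 1.25-fold rise. Such a rise lies far under the 2-fold limit by which differential expression is commonly called. The comparison of line 7 therefore asked how many transcripts moved a little and how many moved 2-fold, and whether the small changes lay together.

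The value of a row is a log2 ratio, evolved over ancestral, so that 1 is a 2-fold rise and −1 a 2-fold fall. The table held 6377 rows, and the 6296 rows measured on 2 or 3 arrays of line 7 were tested. The arrays held 6302, 6239 and 6288 values, and their medians were −0.002, −0.0147 and −0.0167. Pairs of arrays correlated at 0.683, 0.736 and 0.685 over rows, and the median SD of a row was 0.0973. The labels call the arrays technical replicates, so p-values cover technical error and not the spread between clones. In the limma fit the spread of a row was estimated over all 10 groups of 3 arrays. Its p-values therefore rest mostly on the scatter of arrays of the other groups.

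Each row carried a yeast systematic name, but the values did not bear these names out. Genes of cytosolic ribosomal proteins are known to be co-regulated, but the 117 rows under their names with values on all 30 arrays had a mean pairwise correlation of −0.00177. Over all 5701 complete rows it was 0.00177. Where a ribosomal protein has duplicated genes, A and B, the rows under both names had a median correlation of 0.0148 over 45 such pairs. Rows are therefore given by their number in the table, and no gene is named.

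Few rows of line 7 changed 2-fold and many changed by less. With limma, 1868 of 6296 rows (29.7%) passed a Benjamini-Hochberg adjusted p of 0.05. Of these, 918 were higher (14.6% of rows tested) and 950 were lower (15.1%) in the evolved clone. At an unadjusted p under 0.05 there were 2486 rows. The median size of the change was 0.316 in the higher and 0.294 in the lower rows that passed. The smallest mean that passed was 0.12 in size. Of the 1868 rows, 14 (0.222% of rows tested) reached 2-fold, with 13 higher (0.206%) and 1 lower. This count and its lean to rises depended on the scaling, and quantile normalization over the 30 arrays gave 53 calls, 29 higher and 24 lower. As deposited, the remaining 1854 rows, or 99.25% of those past the adjusted p, changed less than 2-fold.

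Most small changes that passed had the same sign on every array. Of 1838 rows past the adjusted p under 2-fold with a value on every array, 1805 (98.2%) had the same sign on all 3. Over all 6208 tested rows with 3 values the share was 62.6%. The adjusted p rests on the same 3 arrays, so the first share describes the rows that passed and is no separate test.

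Small rises did not outnumber small falls over the whole table. Means from 0.2 up to 0.5 were found in 866 rows and means of the same size below 0 in 973 rows. The excess of rises over falls was −1.7% of rows, and it was −0.54%, −1.99% and −3.29% on the single arrays. All 3 arrays had more falls than rises in this range. The sign of the excess turned when each array was centred on its median, where it was 0.318%, so the table as a whole gave no firm balance. From 0.5 up to 1 the order was the reverse, with 148 rises and 88 falls. The other lines had an excess of small rises between −2.26% in line 3 and 4.49% in line 4, and line 7 lay within that range.

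**Figure D1:**
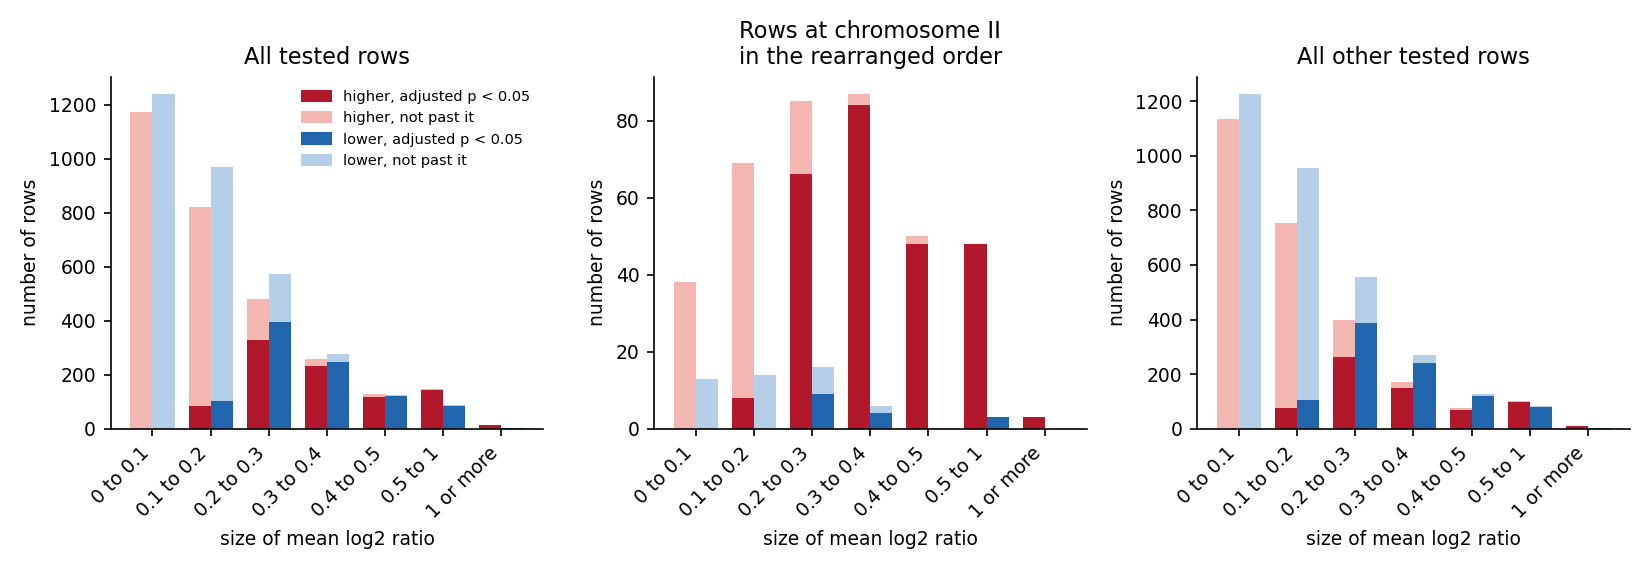
Number of rows (y axis) by the size of the mean log2 ratio in line 7 (x axis), for higher (red) and lower (blue) rows, with rows past the limma adjusted p in the dark shade. The left panel holds all 6296 tested rows, the middle panel the 432 tested rows at the places of chromosome II in the rearranged order described in the text, and the right panel the other 5864. Rises dominate in the middle panel, and falls are more frequent in every size band under 0.5 in the right panel.

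The highest row of line 7 was row 663, with log2 ratios of 1.22, 1.72 and 1.41 on the 3 arrays. Its mean was 1.45 ± 0.25 (SD, n = 3), a 2.74-fold rise with a limma adjusted p of 1.93e-14. With the arrays of line 7 fitted alone, its limma adjusted p was 0.0003075. The other lines lay between −0.76 and 0.79 in this row, below every array of line 7. Row 4849 had 1.42, 1.5 and 1.38, and row 1246 had 1.35, 1.5 and 1.41. The means of these rows were 1.43 ± 0.06 and 1.42 ± 0.08 (SD, n = 3), and their arrays lay close together. Row 846 had 1.32, 1.66 and 1.19, with a mean of 1.39 ± 0.24 (SD, n = 3).

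Rows 1865 and 1864 stand next to each other in the table and moved together. Row 1865 had 1.23, 1.32 and 1.36, and row 1864 had 1.00, 1.35 and 1.48. Over the 30 arrays of the series their values correlated at 0.938, which describes these rows only, since the arrays of a group are not independent samples. Of the 7 other lines, line 5 was the highest in both, at 0.55 in row 1865 and 0.41 in row 1864, and line 2 the lowest, at −0.43 in each.

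The remaining higher calls had means from 1.03 to 1.18. They were rows 3917, 641, 1632, 4046, 723, 5608 and 4475. Row 4046 was the most even of them, with 1.05, 1.12 and 1.12, and an SD of 0.04. Row 4475 was the lowest call, with 1.08, 1.21 and 0.81, and it fell to a mean of 0.94 when replicate 2 was left out. No array of a higher call lay below 0.81.

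The only row called lower was row 2332, with −0.93, −1.32 and −1.45 and a mean of −1.24 ± 0.27 (SD, n = 3, limma adjusted p = 7.87e-07). It was lower still in lines 1, 3 and 5, at −1.79, −1.68 and −1.5. In lines 2, 4, 6 and 8 it lay between −0.19 and 0.01. Line 7 is thus one of 4 lines with a 2-fold lower mean in this row.

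The 2-fold limit divided rows of nearly equal value. Row 4475 at 1.03 was the last to pass it, and row 6321 at 0.999 and row 3724 at 0.991 lay just under it. Row 1968 had a mean of 0.995 ± 0.884 (SD, n = 3) that hid a divided set of arrays, at 1.31, −0.0044 and 1.68. Rows 850 and 2002 followed, at 0.967 and 0.941. On the lower side, row 3512 had a mean of −0.991 over the 2 arrays that measured it, at −1.36 and −0.62. Rows 3334, 5791, 4132 and 3014 followed with means from −0.955 to −0.906. Of these, row 5791 was uneven, with −0.49, −1.13 and −1.19.

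**Figure D2:**
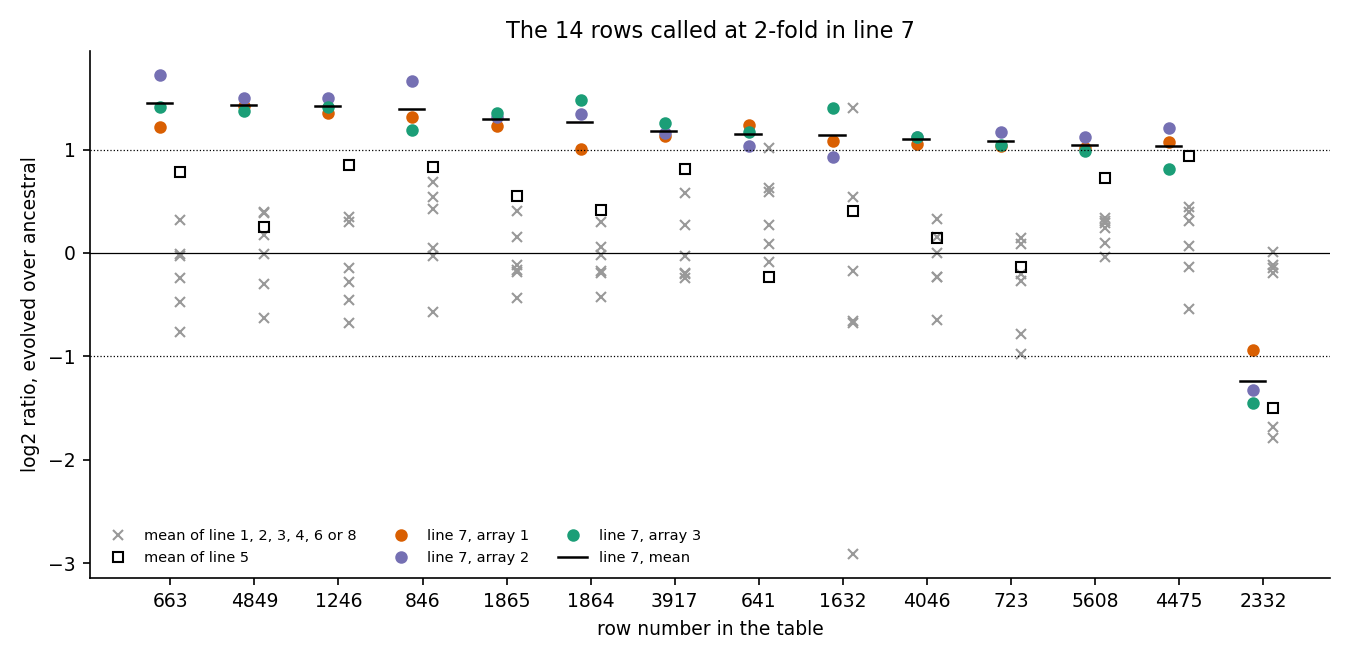
Log2 ratios, evolved over ancestral (y axis), of the 14 rows called at 2-fold in line 7 (x axis, row numbers), with each array of line 7 as a filled circle, the line 7 mean as a bar, line 5 as an open square and the other lines as crosses. Line 7 lies above every other line in 12 of the 13 higher rows, which were picked for their high values in line 7. In row 2332 lines 1, 3 and 5 lie lower.

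Line 7 was set against the mean of the other 7 lines in the same limma fit, to see which changes differed from theirs. Of 6070 rows with values in all lines, 1757 (28.9%) passed the adjusted p for this difference, and 19 (0.313%) also differed by at least 1, with 13 higher and 6 lower in line 7. Quantile normalization gave 81 such rows with the lean turned, 39 higher and 42 lower, and without line 1 among the others there were 37, 20 higher and 17 lower. All 13 rows called higher against the ancestor passed the adjusted p of the difference. They had been picked for high values on the same arrays of line 7, so this is no separate support. The test takes the lines as fixed and uses technical error, and an exact permutation of 1 line against 7 cannot give a p below 1 in 8.

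The largest positive differences were in rows 663, 1632, 1246, 4849 and 723, from 1.51 down to 1.39. In row 723 line 7 had 1.04, 1.17 and 1.04, while lines 2 and 6 had −0.98 and −0.78, so this difference came from both sides. Row 1632 was wide among the other lines, from −2.91 in line 4 to 1.40 in line 8. Line 7, at 1.14 ± 0.24 (SD, n = 3), was therefore not the highest line in that row.

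The largest negative difference was in row 4132. Its arrays of line 7 had −1.01, −0.81 and −0.97, a mean of −0.93 ± 0.11 (SD, n = 3), and the other lines averaged 0.45. The difference was −1.38, with a limma adjusted p of 2.15e-11. Rows 1154, 3456 and 4012 had differences of −1.14, −1.12 and −1.05. In these the other lines averaged 0.51, 0.42 and 0.51, and line 7 had means of −0.63, −0.70 and −0.55. Row 3912 had a difference of −1.07 that rested mostly on 1 array, with line 7 at −0.46, −0.01 and −1.97.

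Several of the 2-fold rises of line 7 had smaller counterparts in line 5 and line 1. Among the 13 rows called higher, line 5 was above 0 in 11 and past the limma adjusted p in the higher direction in 9, where 19% of all rows tested in line 5 were past it in that direction. Line 1 gave the same counts, 11 and 9, with a background of 20%. The median over the 13 rows was 0.55 in line 5 and 0.331 in line 1, against medians over all rows of −0.0024 and 0.00557. In line 3, 3 of the 13 were above 0, none was past the adjusted p as higher (17.6% of rows tested in line 3) and 6 were past it as lower (18.8%). Line 8 was above 0 in 8 of the 13. It was the only other line with 2-fold higher calls among them, row 641 at 1.02 and row 1632 at 1.40, beside 10 such calls in 6359 rows tested in line 8. Lines 2, 4 and 6 were above 0 in 5, 4 and 6 of the 13.

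Over all rows the likeness was with line 5. The line means of lines 7 and 5 correlated at 0.538 over 6278 rows, the highest of the 7 lines. The next was line 4 at 0.268, and the lowest was line 8 at −0.215. Line 1, which shared the sign of most 2-fold rises, had −0.0614 over the whole table. Rows are not independent and every array had the same dye orientation, so these values describe the arrays.

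Of the rows past the adjusted p, line 7 shared the most with line 5 relative to the background. Of the higher rows of line 7 that were also tested in line 5, 455 were higher in both, which is 49.7% of those of line 7 and 38.3% of those of line 5, beside 18.9% of all rows higher in line 5. Of the lower rows, 566 were lower in both, or 59.6% and 41.6%, beside a background of 21.6%. Line 4 shared 52.6% of the higher and 50.3% of the lower rows of line 7, beside backgrounds of 35.8% and 31.1%. Line 2 shared 34.1% and 43.8%, beside 24.1% and 24%. Line 1 shared 13.9% of the higher rows, below its background of 20%, and 23.7% of the lower, beside 20.7%. With line 8, 80 higher rows were shared, or 8.72% of those of line 7 and 11.3% of those of line 8, beside a background of 11.3%. Lines 5 and 7 shared no ancestor culture by their labels. Both had many empty cells, 285 and 299 over their arrays, as did lines 1 and 4 with 564 and 480, while lines 2, 3, 6 and 8 had 58 to 127. The part of this in the likeness was not tested.

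The small rises of line 7 lay together in the table, but not on all rows of a stretch. With rows grouped by the name printed beside them, chromosome III was the highest of 16, with a median shift from the array median of 0.144 ± 0.00422 (SD over 3 arrays). Chromosome IV had 0.0647 and chromosome II 0.0583 ± 0.021, and the others lay between −0.0449 and 0.00987. Within these chromosomes the names divided the rows. Yeast systematic names end in W or C for genes on either strand, and the raised medians were those of rows with names ending in C. Rows listed on the left arm of chromosome III had a median shift of 0.28 for C and 0.0383 for W, and those on its right arm 0.288 and −0.0349. On the left arm of chromosome IV the shifts were 0.335 and −0.0178, and on the right arm of chromosome II 0.2 and 0.0028. On the left arm of chromosome II neither was raised, at 0.0036 and −0.0335. The right arm of chromosome IV, with 281 rows for C, had only 0.0559 and −0.0141. Single rows went against this division, and row 641, listed on chromosome III with a name ending in W, was called at 2-fold. Over the table, 43 of 3009 tested rows for W and 109 of 2975 for C had a mean of at least 0.5. A mean of −0.5 or lower was found in 51 rows for W and 36 for C. The rows for C include the raised groups given above. The SDs of the shifts over the 3 arrays ran from 0.00527 to 0.0531. Raised groups were alike on the arrays, while some groups near 0 differed in sign between them. The rows for C on the left arm of chromosome II had −0.0058, −0.0442 and 0.0608.

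Read without the rows between them, rows whose names end in C held a raised run. A rearranged order was set up from this. The 3012 rows with names ending in C were placed at the top, followed by 28 rows with mitochondrial names, 3049 rows with names ending in W and 288 rows with longer names, each in table order. The identifiers in the table's own order were then laid along this sequence of rows, which gave 435 rows the places of chromosome II. The order was reached after the values of line 7 had been seen, with the described chromosome II in mind and after many other orders had been tried, and published ratios of line 4 were used in that search. What follows is a description of where the changes lie, with no test. The order was not borne out by the ribosomal protein places, whose mean pairwise correlation was 0.00132 under it. As listed it was −0.00177, and over all complete rows 0.00177. No gene is therefore named from it, and the chromosome places given below are those of this order only. Groups of places differed in how they behaved. The mean pairwise correlation was 0.505 over the 25 complete rows at the mitochondrial places, against 0.119 as listed, and 0.0189 against −0.00967 for the respiratory chain. It was lower than as listed for heat shock proteins (−0.0258 against 0.00959), proteasome subunits (−0.0193 against −0.00129) and histones (−0.0717 against −0.044). The A and B places had a median correlation of 0.117, with 30 of 50 pairs above 0, against 0.0148 and 23 of 45 as listed.

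**Figure D3:**
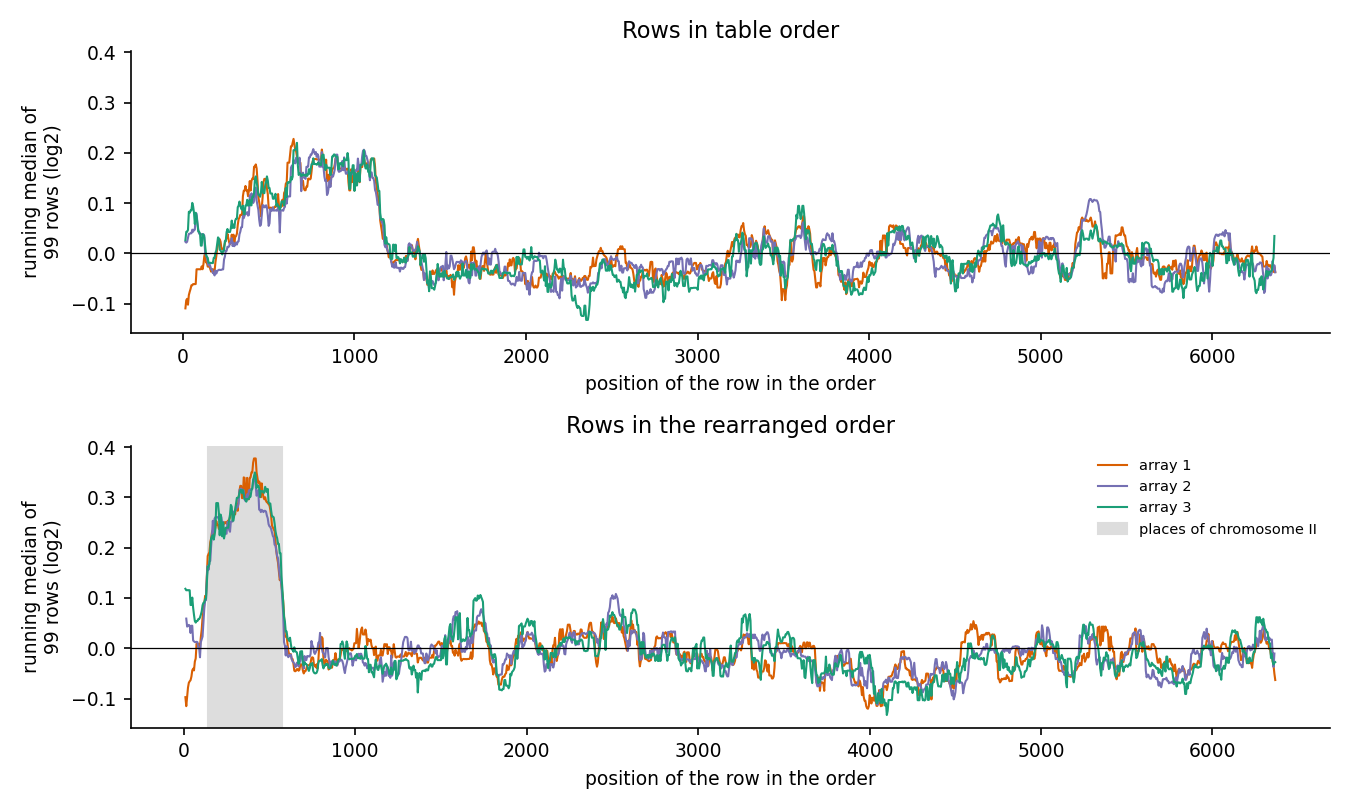
Running median of 99 rows (y axis, log2 ratio after subtraction of the array median) along the position of the row (x axis) for the 3 arrays of line 7, in table order (upper panel) and in the rearranged order (lower panel), where grey marks the places of chromosome II. In table order a low plateau covers a wide stretch of rows, and in the rearranged order a single peak of 0.354 lies within the grey places.

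In the rearranged order the small rises of line 7 gathered at the places of chromosome II. The median shift there was 0.272, 0.262 and 0.282 on the 3 arrays, a mean of 0.272 ± 0.0101 (SD, n = 3). The other 15 chromosomes lay between −0.0579, at XII, and 0.0264, at I, and no single array of theirs exceeded 0.0579. The 3 arrays of chromosome II did not overlap with any of them, in an order that was reached with these arrays in view.

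**Figure D4:**
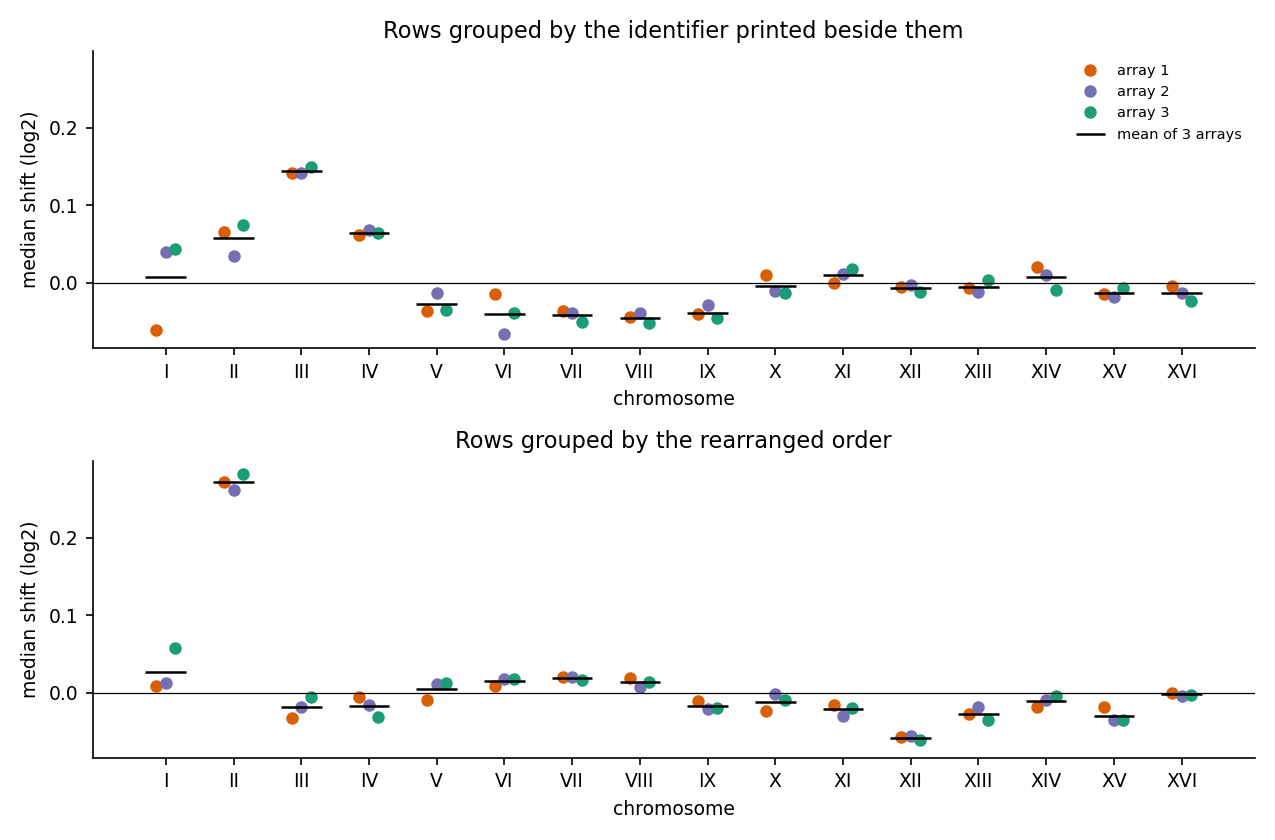
Median shift of each chromosome (y axis, log2, relative to the array median) on the 3 arrays of line 7 (circles) with their mean (bars), for rows grouped by the listed identifier (upper panel) and by the rearranged order (lower panel). As listed, chromosome III is highest at 0.144, and in the rearranged order chromosome II stands at 0.272 with all others under 0.03 in mean.

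Against all other rows rather than the array median, the places of chromosome II were higher by 0.287, 0.274 and 0.299. The mean was 0.287 ± 0.0125 (SD, n = 3), a 1.22-fold difference, beside the 0.32 of a change from 4 to 5 copies. On which side of 0.32 the places lay depended on the scaling, since their shift from the array median was 0.272 as deposited and 0.354 after quantile normalization. The part of gene copy number in it was not tested. Without centring, the medians of the other rows were −0.0172, −0.0273 and −0.0341.

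Most rows at these places rose and few reached 2-fold. Of 432 tested rows, 380 (88%) had a mean above 0, beside 45% of the other 5864 rows. The middle 50% of rows lay between 0.127 and 0.392. By limma's adjusted p, 257 rows (59.5%) were higher and 16 (3.7%) lower, beside 11.3% and 15.9% of the other rows. Since the order was reached with the values of line 7 in view, these shares describe the rows and are no separate test. These places held 6.86% of the rows tested and 28% of all rows that passed as higher. Of the 13 rows called 2-fold higher, 3 lay there, rows 663, 723 and 846, and 10 lay elsewhere. These were 0.694% of the rows tested at these places and 0.171% of the others, with too few calls to compare the shares. The SD of row means was 0.251 within these places and 0.221 outside, so rows at the places of chromosome II varied about their raised median slightly more than other rows about theirs.

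The balance of small changes divided along the same line. Between 0.2 and 0.5 in size, rises exceeded falls by 46.3% of rows at the places of chromosome II, and elsewhere the excess of rises was −5.24% of rows, beside −1.7% over the whole table. From 0.3 up to 0.4, 87 tested rows at these places rose and 6 fell, and elsewhere 170 rose and 269 fell. Above 0.5 the other rows no longer leaned to falls, with 100 rises and 85 falls from 0.5 up to 1 and 10 rises and 1 fall beyond it.

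The rise extended along the whole stretch. When the 435 places were cut into 10 consecutive parts of 43 or 44 rows, every part had a mean shift between 0.16, in part 3, and 0.363, in part 6. No single array fell below 0.102 in any part. The parts at either end had 0.176 and 0.186. The flanking 44 rows before them had 0.046 and the flanking 43 after them 0.0328, so the level dropped at both edges. The consecutive rows that stood highest, found with a level of 0.161 subtracted from each mean, ran from position 148 to position 550, while the places of chromosome II run from 140 to 574. That run of 403 rows lay wholly within these places and covered 92.6% of them. The order was set up from the raised run, so this overlap is no separate support for it. The edges were not sharp to single rows, and moving the stretch by 20 rows either way left a shift of 0.276 or 0.268.

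Line 7, whose values were in view when the order was reached, was the only line with a raised median at these places beyond 0.02. Lines 1 to 6 lay between −0.122 in line 2 and 0.0137 in line 3. Line 8 stood at the opposite end, with −0.225, −0.238 and −0.25 on its arrays and a mean of −0.237 ± 0.0125 (SD, n = 3). Other lines had shifts of like size at the places of chromosome IX in this order. They were 0.324 ± 0.0257 in line 4 and 0.267 ± 0.00838 in line 6 (SD, n = 3). Lines 2 and 8 had 0.206 ± 0.00878 and 0.203 ± 0.00278 (SD, n = 3). Lines 2, 6 and 8 were also raised at the places of chromosome VIII, at 0.184, 0.205 and 0.185, while line 4 had 0.0244 there. A raised median at the places of a chromosome was thus not particular to line 7. The places of chromosomes VIII and IX were not cut into parts. Whether those shifts ran along all their places or kept to their edges was not examined. For the clones of lines 4, 6 and 8 the study described no large-scale change in copy number, and for line 2 a deletion on chromosome VII. The cause of these shifts was not tested. The likeness to line 5 was present inside and outside the places of chromosome II. Line 5 itself had a shift of −0.0102 there. Lines 7 and 5 correlated at 0.572 over the 5849 rows outside them and at 0.522 over the 429 rows inside.

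**Figure D5:**
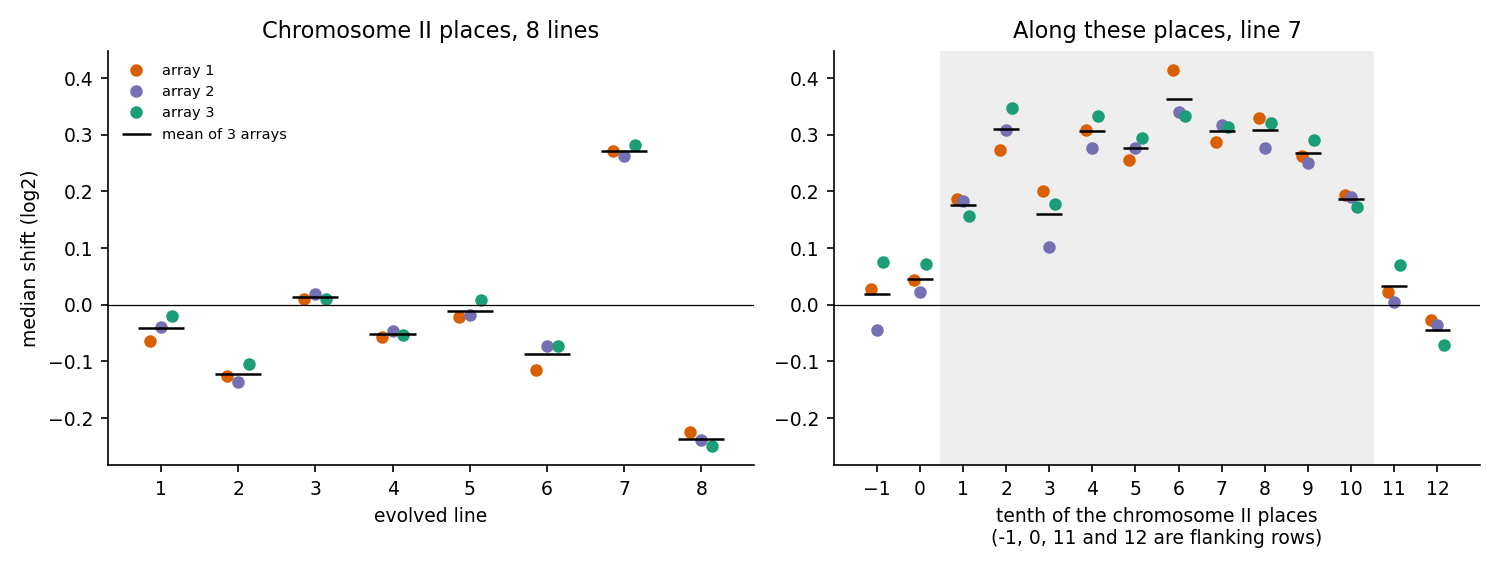
Median shift (y axis, log2, relative to the array median) at the places of chromosome II in the rearranged order, for the 3 arrays (circles) and their mean (bars) of each of the 8 lines (left panel), and along these places in line 7 (right panel), where the grey area spans 10 consecutive parts and the points outside it are flanking rows. Line 7 stands at 0.272 and line 8 at −0.237, and all 10 parts of line 7 lie above the flanking rows.

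The gene groups chosen for this comparison can be given by listed name only, and since the names were not borne out their values describe arbitrary rows. Of 129 tested rows listed as cytosolic ribosomal proteins, 19 passed limma's adjusted p as higher and 15 as lower, with a median of −0.0145. Of 22 listed as heat shock proteins, 3 were higher and 4 lower. Of 34 listed as proteasome subunits, 4 were higher and 6 lower, and of 59 listed as respiratory chain and ATP synthase subunits, 11 were higher and 12 lower. Of 9 rows listed as histones 1 was higher, and of 27 with mitochondrial names 4 were higher and 2 lower. None of these rows was called at 2-fold, and the shares past the adjusted p ran from 11.1% to 39%, around the 29.7% of all rows.

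The 28 rows at the mitochondrial places of the rearranged order were uneven between the arrays of line 7. Their median was −0.255, 0.147 and 0.245 on arrays 1, 2 and 3, with array 1 on the other side of 0. Averaged over arrays the median was 0.0226, and 1 of 28 rows passed the adjusted p, as higher.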

How the data were processed

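Per the labels and the study's methods, total RNA of 2 cultures was hybridised to each spotted oligonucleotide array, and the authors left out spots with an intensity under 500, took log2 values and normalized each array by LOWESS in GeneSpring. The deposited values are these log2 ratios, evolved over ancestral, in a table of 6377 rows and 30 arrays. Scale and direction rest on the labels and methods, and spot intensities are unknown. Cells at −6.64, the log2 of 0.01, were set to missing (3 on the arrays of line 7, beside 299 empty cells). The number of arrays limits the precision.

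All 10 groups were fitted together in limma 3.58.1 (R 4.3.3; lmFit, eBayes), with Benjamini-Hochberg adjustment over all rows. Rows measured on 2 or 3 arrays were tested, and calls had an adjusted p under 0.05 with a mean of 1 or more in size. The scripts were tested on simulated data. Medians, counts and figures used Python 3.11.15, numpy 2.4.6, pandas 2.3.3 and matplotlib 3.10.9.

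The rows given singly are all 2-fold calls, the 5 highest and 5 lowest of those past the adjusted p under 2-fold, and the 5 largest differences from the other lines in each direction. Comparisons, gene lists and members were chosen with earlier results of these data known. The rearranged order, its windows and the splits inside and outside it were chosen after seeing the data. The R64 annotation held a locus tag for 5840 of the identifiers and none for 537.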

Additional observations from a re-analysis of the deposited data

Results flagged for a closer look

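Of 19 measures examined over the 8 lines, only the number of rows called set 1 line far from the others. It was 521 in line 4, against 13 to 92 in the other lines, and line 7 with 14 lay at the low end of that range. Chance sets about 1 measure in 20 apart, or 0.95 here. No measure was set apart with line 7 as the extreme line, the chromosome II shift of the rearranged order included. The rule set the gap to the nearest line against the range of all lines. For this shift line 7 had 0.272 and the nearest line, line 3, 0.0137, while line 8 at −0.237 widened the range.

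The difference of line 7 from the mean of the other lines was tested directly in limma, and 19 rows were called, 13 higher and 6 lower in line 7.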

How the results depend on the processing

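Quantile normalization moved the counts to 53 rows called (29 higher and 24 lower, or 54.7% higher against 92.9% as reported), 2814 past the adjusted p, and 81 against the other lines (39 higher and 42 lower, or 48.1% higher against 68.4%). It also moved the rearranged chromosome II shift to 0.354. With a limit of 1.5-fold in place of 2-fold, 141 rows were called, 96 higher and 45 lower. The paper names no test, and a t-test on the 3 arrays at its threshold of 0.005 called 8 rows, all higher, and 0 after Benjamini-Hochberg adjustment, where the 14 rows had adjusted p-values from 0.0763 to 0.117. The difference gave 37 calls when line 1 was left out of the other lines. Chosen after seeing the data were the difference against lines 2, 3, 6 and 8 (48 calls) and with no fold minimum (1757). The excess of small rises was 0.318% after centring, −4.07% from 0.1 to 0.5 and −0.27% from 0.3 to 0.5. The cause of these changes was not tested.

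Leaving out 1 replicate gave 15 to 17 calls, 1177 to 1317 rows past the adjusted p (1177 without replicate 3), and 17 to 24 calls of the difference. It gave an excess from −2.74% to −1.45%, a listed chromosome II shift from 0.05 to 0.0701 and a rearranged one from 0.267 to 0.277. With the replicate number as a block the counts were 14, 1866 and 19. Arrays of the same number in line 7 and another group had deviations that correlated between −0.215 and 0.258, over 0.1 in 7 of 27 pairs. Arrays of different numbers were not set beside them, so whether the numbers pair the arrays was not settled. Of 168 repeats of the single called rows, 153 kept the call, 14 of the others being those of the t-test and 1 row 4475 without replicate 2.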
